A study of Homo sapiens with 8 samples.

Results

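Of 9 genes that serve as standard readouts of the transcription factor NRF2, TXNRD1 and SRXN1 were higher in HuCCT1 cells carrying shRNA vectors against BEX2, and the other 7 did not pass the test in either direction. Among all genes tested, 6.68% were called as higher and 6.27% as lower. TXNRD1, the cytosolic thioredoxin reductase, rose 2.74-fold. SRXN1, the sulfiredoxin that repairs over-oxidized peroxiredoxins, rose 1.45-fold, near the threshold of the test. It was called in neither subline alone, and the call was lost under 10 of 20 alternative settings. HMOX1, NQO1, GCLC, GCLM, AKR1C1, AKR1B10 and GPX2 gave log2 differences between -0.33 and 0.55. The 9 genes were taken by name from the 34809 gene names of the array, and all of them were among the 20450 genes tested and were well above background on all 8 arrays.

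NRF2, encoded by NFE2L2, is held in the cytoplasm by KEAP1, an adaptor that passes it to the CUL3 ubiquitin ligase for degradation. Oxidants and electrophiles modify KEAP1, and the NRF2 that escapes enters the nucleus, pairs with small MAF proteins and binds antioxidant response elements, where BACH1 competes for the same sites. Its targets make glutathione, reduce thioredoxin, break down haem and reduce quinones and carbonyls. In cholangiocarcinoma and other carcinomas the pathway is known for protecting tumour cells from oxidants and drugs.

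HuCCT1 is an established line from an intrahepatic cholangiocarcinoma, a cancer of the bile ducts within the liver. Total RNA labelled with Cy3 was measured on single-colour Agilent arrays, with 2 arrays for each of 4 vectors. Cells with the vector shControl and cells with the vector shNontarget are labelled control (4 arrays), and cells with the vectors shBEX2-1 and shBEX2-2 are labelled BEX2 knock down (4 arrays), with no other treatment named. BEX2 is a small adaptor protein that the study follows as a gene of dormant cancer stem cells. Each short hairpin vector stands for 1 subline, neither source says which control vector targets luciferase, and no source tells whether a vector's 2 arrays hold RNA of separate cultures, so that p-values measure the spread between these arrays, which may be technical. As printed in the study, the 2 BEX2 hairpin target sequences are reverse complements of each other but for 1 base at either end. Agreement between the sublines therefore cannot stand for 2 separate target sites. All 8 arrays sat on 1 slide, the control arrays in row 1 and the knockdown arrays in row 2, so that slide row and group cannot be told apart.

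The probe of BEX2 read -3.36 and -3.91 on the shControl arrays, -2.70 and -3.77 on the shNontarget arrays, -5.21 and -5.54 on the shBEX2-1 arrays and -4.92 and -4.60 on the shBEX2-2 arrays. These and all levels below are log2 intensity minus the 75th percentile of the array, so that 0 is the brightness that 75% of spots stay below, and 1 unit is a doubling. All 4 knockdown arrays were below all 4 control arrays, and the log2 difference was -1.63 ± 0.32 (SE; limma, adjusted p = 0.0116). Against the mean of the control vectors, BEX2 differed by -1.94 in shBEX2-1 cells (adjusted p = 0.0335, where 3.62% of all genes were called as lower) and by -1.32 in shBEX2-2 cells, which did not pass the test (adjusted p = 0.0812). The probe was not well above background on the 2 shBEX2-1 arrays, and with normexp background correction, which pulls dim spots together, the difference was -0.45 (adjusted p = 0.0796). The 10 bile duct epithelial markers (KRT7, KRT19, EPCAM and others) were well above background on all 8 arrays. The other lists were mixed. Of 7 hepatocyte markers, CPS1 was so on all 8 arrays and ALB and TTR on none. Of 6 fibroblast markers, COL1A1 and LUM were so on all 8 and COL1A2 and COL3A1 on none. Of 4 endothelial markers, CDH5 and VWF were so on all 8 and PECAM1 and KDR on none. The summed level of 6 leukocyte markers, carried by CD14 and CD68, was 0.783 to 0.941 on control arrays and 1.26 to 1.67 on knockdown arrays (linear, relative to the 75th percentile), and its part in the results below was not tested. The arrays of shNontarget stood apart from each other: 7132 genes (34.9%) differed by more than 1 log2 unit between them, against 360, 320 and 114 genes between the arrays of shControl, shBEX2-1 and shBEX2-2.

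Thioredoxin reductase uses NADPH to keep thioredoxin reduced, and TXNRD1 is the form of the cytosol. The probe lies at chr12:104732949-104733008 (hg19) and matches NM_003330 in the array's annotation. The stretch below is the first 30 bases of the probe, shown because the largest difference of the 9 genes rests on this 1 probe. The stretches after it are the sequences from 250 bases before to 10 bases after each of 2 annotated TXNRD1 starts, on the plus strand at chr12:104215529-104215788 and chr12:104286782-104287041 (RefSeq, GRCh38.p14). Capitals mark the core of the antioxidant response element, TGACNNNGC, on either strand.
TXNRD1 probe: aaatgctggagaagttacacaaggctttgc
TXNRD1 start A: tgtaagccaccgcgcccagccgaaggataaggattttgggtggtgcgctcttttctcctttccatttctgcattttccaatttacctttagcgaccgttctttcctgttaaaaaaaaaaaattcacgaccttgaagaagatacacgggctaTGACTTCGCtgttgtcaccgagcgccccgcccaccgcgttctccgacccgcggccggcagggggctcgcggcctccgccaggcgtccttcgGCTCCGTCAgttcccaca
TXNRD1 start B: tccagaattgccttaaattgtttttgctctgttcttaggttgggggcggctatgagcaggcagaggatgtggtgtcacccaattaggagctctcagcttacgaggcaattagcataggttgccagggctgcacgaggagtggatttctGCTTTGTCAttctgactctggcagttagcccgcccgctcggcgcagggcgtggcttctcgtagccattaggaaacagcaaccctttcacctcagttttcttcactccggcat

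The core occurred at 99 and 8 bases before start A and at 102 bases before start B. Promoter windows of 300 bases (250 before and 50 after the start) were listed for 7 of the 9 genes, with no entry for HMOX1 and AKR1B10, and the core lay in the windows of TXNRD1, GCLM and GPX2. Of all 35116 listed windows, 13.3% held it, so that short matches of this kind are common. The AP-1 site TGACTCA, a motif whose letters can overlap the longer form of the element, was in 0 of the 8 windows of these genes and in 4.95% of all windows. In GCLM the core lay 34 bases before the start, on the opposite strand, within chr1:93909421-93909680 (GRCh38.p14, minus strand gene), and the stretch is shown because GCLM, which did not pass the test, carries the core as TXNRD1 does.
GCLM start: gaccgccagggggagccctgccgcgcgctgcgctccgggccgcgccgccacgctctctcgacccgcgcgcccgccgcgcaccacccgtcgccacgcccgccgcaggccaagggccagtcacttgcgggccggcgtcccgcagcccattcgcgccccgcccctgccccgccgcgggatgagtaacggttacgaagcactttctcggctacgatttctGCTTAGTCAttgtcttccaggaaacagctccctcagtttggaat

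TXNRD1 had processed intensities of 669 and 719 on the shControl arrays, 764 and 886 on the shNontarget arrays, 1584 and 1468 on the shBEX2-1 arrays and 1498 and 1531 on the shBEX2-2 arrays. The scaled log2 levels were -0.13 and -0.22, 0.03 and 0.41, 1.85 and 1.51, and 1.28 and 1.28 in the same order. Every knockdown array lay above every control array, before and after scaling. The log2 difference of the 4 knockdown arrays from the 4 control arrays was 1.45 ± 0.18 (SE; limma, adjusted p = 0.00211), a 2.74-fold rise with a 95% confidence interval from 2.05-fold to 3.66-fold. An exact two-sided permutation test gave p = 0.0286, the smallest that the 70 relabellings of 4 against 4 arrays allow. Of all genes tested, 13.0% were called in either direction and 6.68% as higher at an adjusted p under 0.05, and 11.4% had all knockdown arrays above all control arrays. In RNA pooled from many cells, more cells with the transcript and more transcript per cell cannot be told apart.

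Both sublines carried the rise in TXNRD1. Set against the controls, with both control vectors given equal weight, the log2 difference was 1.65 ± 0.16 in shBEX2-1 cells (SE; limma, adjusted p = 0.00722) and 1.25 ± 0.16 in shBEX2-2 cells (adjusted p = 0.00886). TXNRD1 was the only one of the 9 genes called in either subline, where 3.39% and 4.86% of all genes were called as higher in shBEX2-1 and shBEX2-2 cells. Taken against each control vector alone, TXNRD1 was called in all 4 pairs, with log2 differences of 1.85 (shBEX2-1) and 1.45 (shBEX2-2) from shControl, and of 1.46 and 1.06 from shNontarget (limma, adjusted p between 0.0089 and 0.0314). As higher, 2.60%, 3.82%, 1.52% and 3.22% of all genes were called in these 4 pairs. These pair calls were lost in 22 of 32 fits with 1 array left out (adjusted p between 0.0547 and 0.263), with log2 differences between 0.87 and 2.02 over the 32, and 8 of the 10 calls kept came without an shNontarget array. The 4 vectors ordered from shBEX2-1 over shBEX2-2 and shNontarget to shControl, and of the neighbours in that order only shBEX2-2 and shNontarget were set apart. The sublines differed by 0.40 (95% confidence interval -0.06 to 0.86, adjusted p = 0.774) and the control vectors by 0.40 (-0.06 to 0.85, adjusted p = 0.726).

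The rise in TXNRD1 was called under 19 of 20 alternatives to the 4 against 4 comparison, with log2 differences between 1.26 and 1.65. It missed the threshold with the shNontarget arrays alone as control (1.26, adjusted p = 0.0511), where 4 arrays stand against 2. Within the single sublines, which rest on 2 arrays each, the call for shBEX2-1 was lost without either shControl array (adjusted p = 0.0595 and 0.0680) or either of its own arrays (0.135 and 0.0893). The call for shBEX2-2 was likewise lost without either shControl array (adjusted p = 0.0517 and 0.0586) or either of its own (0.136 and 0.128). The log2 difference stayed between 1.49 and 1.82 in shBEX2-1 cells and between 1.23 and 1.28 in shBEX2-2 cells in these fits.

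SRXN1 acts on peroxiredoxins, the peroxidases that thioredoxin recharges. Its probe lies at chr20:627563-627622 (hg19), and its first 30 bases are given because the second call among the 9 genes rests on it.
SRXN1 probe: gttcaataataaggacaagagcttttccca

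SRXN1 read 1.55 and 1.54 on the shControl arrays, 1.91 and 1.24 on the shNontarget arrays, 2.07 and 2.06 on the shBEX2-1 arrays and 2.11 and 2.15 on the shBEX2-2 arrays. The knockdown arrays lay close together and above every control array, and the log2 difference was 0.54 ± 0.15 (SE; limma, adjusted p = 0.0444), 1.45-fold with a 95% confidence interval from 1.15-fold to 1.83-fold. Before scaling, the intensities of the groups overlapped (2144, 2444, 2800 and 1572 on the control arrays, 1850, 2148, 2665 and 2808 on the knockdown arrays). The 75th percentile that the scaling subtracts ran from 667 to 838 on control arrays and from 441 to 631 on knockdown arrays, and TXNRD1, unlike SRXN1, was apart between the groups on either scale.

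In the single sublines SRXN1 differed from the mean of the control vectors by 0.50 in shBEX2-1 cells and by 0.57 in shBEX2-2 cells, which did not pass the test (limma, adjusted p = 0.195 and 0.138). The 4 against 4 call was lost under 10 of 20 alternatives, with log2 differences between 0.43 and 0.65 over all 20. It was lost without shControl replicate 1 or 2 (adjusted p = 0.115 and 0.115), shBEX2-1 replicate 1 or 2 (0.101 and 0.0978) or shBEX2-2 replicate 1 or 2 (0.122 and 0.121). Of the shNontarget arrays, replicate 1 held the highest and replicate 2 the lowest control level, and the adjusted p reached 0.251 with these arrays alone as control.

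**Figure D1:**
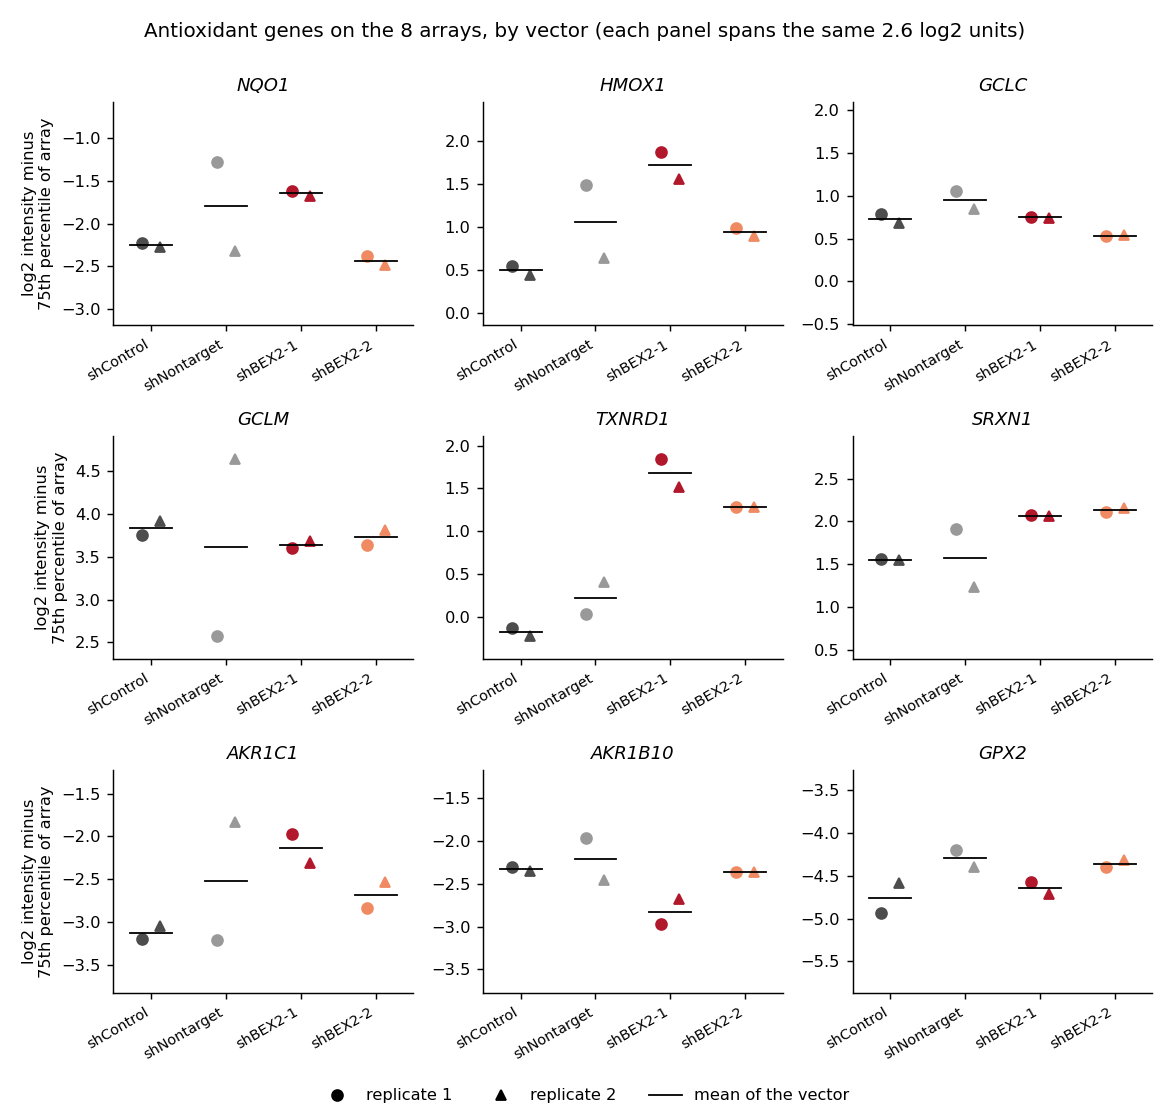
Log2 intensity minus the 75th percentile of each array (vertical axis) for the 9 genes in cells with each of 4 vectors (horizontal axis), 1 point per array and a line at the mean of each vector. The 4 knockdown arrays of TXNRD1 sit between 1.28 and 1.85, above the control arrays at -0.22 to 0.41, while the 2 shNontarget arrays of NQO1, GCLM and AKR1C1 lie more than 1 unit apart.

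Glutathione is made from its amino acids by glutamate-cysteine ligase, whose catalytic subunit is GCLC and whose modifier subunit is GCLM. GCLC read 0.78 and 0.68 with shControl, 1.06 and 0.84 with shNontarget, 0.75 and 0.74 with shBEX2-1 and 0.53 and 0.54 with shBEX2-2. The shBEX2-2 arrays lay lowest, below all control arrays, and the shBEX2-1 arrays lay among the controls. The 4 against 4 log2 difference was -0.20 (95% confidence interval -0.49 to 0.09, limma adjusted p = 0.357), and that of shBEX2-2 from the mean of the controls was -0.30 (adjusted p = 0.186).

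GCLM was the brightest of the 9 probes, which says nothing of its abundance beside the other genes. It read 3.76 and 3.91 with shControl, 2.57 and 4.65 with shNontarget, 3.61 and 3.68 with shBEX2-1 and 3.64 and 3.82 with shBEX2-2. The highest and the lowest of the 8 levels were both shNontarget arrays, and the other 6 lay within that range. The log2 difference of -0.037 thus had a wide interval (-0.86 to 0.79, limma adjusted p = 0.964). Leaving out 1 of them moved GCLM to either side: shBEX2-1 cells differed from the controls by -0.60 without shNontarget replicate 1 (adjusted p = 0.000822) and by 0.44 without replicate 2 (adjusted p = 0.00359), with a single shNontarget array assumed to vary like the others. Unlike the other 10 probes of these genes, the GCLM probe shares a run of 16 bases (bases 39 to 54 of 60) with 8 probes of other genes, 3 on the same strand and 5 on the opposite strand. Between shNontarget replicates 2 and 1, the log2 level of GCLM differed by 2.08, that of the 3 probes with the run on the same strand by 0.86, 1.00 and 1.44, and that of the 5 probes with the run on the opposite strand by between -1.15 and -0.84. All 4 same-strand probes were higher on replicate 2 and all 5 opposite-strand probes were lower, and the part of the shared run in the value of GCLM was not tested.

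GPX2, the glutathione peroxidase of gastrointestinal epithelia, was the dimmest of the 9 probes, with intensities between 19.2 and 42.1. Its levels were -4.94 and -4.59 with shControl, -4.19 and -4.39 with shNontarget, -4.57 and -4.71 with shBEX2-1 and -4.40 and -4.32 with shBEX2-2. The groups overlapped throughout, with a log2 difference of 0.03 (95% confidence interval -0.48 to 0.54, limma adjusted p = 0.953).

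HMOX1, haem oxygenase 1, opens the haem ring and is repressed by BACH1 when haem is low. It read 0.55 and 0.44 with shControl, 1.48 and 0.64 with shNontarget, 1.87 and 1.56 with shBEX2-1 and 0.99 and 0.90 with shBEX2-2. The shBEX2-1 arrays were above all control arrays, and the shBEX2-2 arrays lay between the control arrays. Before scaling, shNontarget replicate 1 (intensity 2092) was above both shBEX2-1 arrays (1617 and 1520). The 4 against 4 log2 difference was 0.55 ± 0.29 (SE; limma, adjusted p = 0.252; exact permutation p = 0.171). In shBEX2-1 cells it was 0.94 (95% confidence interval 0.34 to 1.54, adjusted p = 0.0785) and in shBEX2-2 cells 0.17 (-0.43 to 0.76, adjusted p = 0.762), while the sublines differed from each other by 0.77 (0.09 to 1.46, adjusted p = 0.601). Without shNontarget replicate 1, the highest control array, the 4 against 4 difference was 0.79 and passed the test (adjusted p = 0.0410), as it did with the shControl arrays alone as control (0.84, adjusted p = 0.0458).

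NQO1 reduces quinones in a single step of 2 electrons. Its levels were -2.23 and -2.28 with shControl, -1.28 and -2.32 with shNontarget, -1.61 and -1.68 with shBEX2-1 and -2.38 and -2.49 with shBEX2-2. shNontarget replicate 1 was the highest of the 8 arrays, the shBEX2-1 arrays came next, and the shBEX2-2 arrays were the lowest. The sublines thus lay on opposite sides of the control mean, by 0.38 in shBEX2-1 cells (adjusted p = 0.511) and by -0.41 in shBEX2-2 cells (adjusted p = 0.467), and the difference between them was 0.79 (95% confidence interval -0.01 to 1.59, limma adjusted p = 0.692). The 4 against 4 log2 difference was -0.02 (-0.69 to 0.66, adjusted p = 0.983).

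AKR1C1 and AKR1B10 are aldo-keto reductases, which reduce steroids, aldehydes and ketones with NADPH. AKR1B10 read -2.30 and -2.35 with shControl, -1.97 and -2.45 with shNontarget, -2.98 and -2.67 with shBEX2-1 and -2.36 and -2.37 with shBEX2-2. The shBEX2-1 arrays were below all other arrays, with a log2 difference of -0.56 from the mean of the controls (95% confidence interval -1.02 to -0.09, limma adjusted p = 0.153), and the shBEX2-2 arrays lay among the controls (-0.10, adjusted p = 0.827). The second AKR1B10 probe, 140 bases away, had the same order of the knockdown vectors and correlated with the first over the 8 arrays at r = 0.895. The 4 against 4 log2 difference was -0.33 by the brighter probe (adjusted p = 0.307) and -0.39 by the dimmer one (adjusted p = 0.155 over all probes).

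AKR1C1 was measured by 2 probes whose knockdown differences had opposite signs, with neither called, at chr10:5032153-5032212 (the brighter, which stands for the gene here) and chr10:5005636-5005695 (the dimmer), 26517 bases apart in hg19. They read different sequence under 1 gene name.

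The brighter probe read -3.20 and -3.05 with shControl, -3.21 and -1.84 with shNontarget, -1.98 and -2.31 with shBEX2-1 and -2.84 and -2.53 with shBEX2-2. The dimmer probe read -3.01 and -2.91, -3.95 and -2.12, -2.62 and -3.37, and -3.36 and -3.58 in the same order. shNontarget replicate 2 was the highest array on both. The 4 against 4 log2 difference was 0.41 by the brighter probe (95% confidence interval -0.33 to 1.16, limma adjusted p = 0.468) and -0.24 by the dimmer one (adjusted p = 0.729 over all probes), and r between the probes over the 8 arrays was 0.629. By the brighter probe it passed the test without shNontarget replicate 2 (0.74, adjusted p = 0.0405) and with the shControl arrays alone as control (0.71, adjusted p = 0.0474). The order of start and end in a probe's coordinates matched the RefSeq strand of its gene for 15795 of 16301 probes (96.9%), and for the dimmer AKR1C1 probe. It did not match for the brighter one: AKR1C1 lies on the plus strand and AKR1C2, a close copy with no probe of that name, on the minus strand, and which transcript the brighter probe read was not tested.

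**Figure D2:**
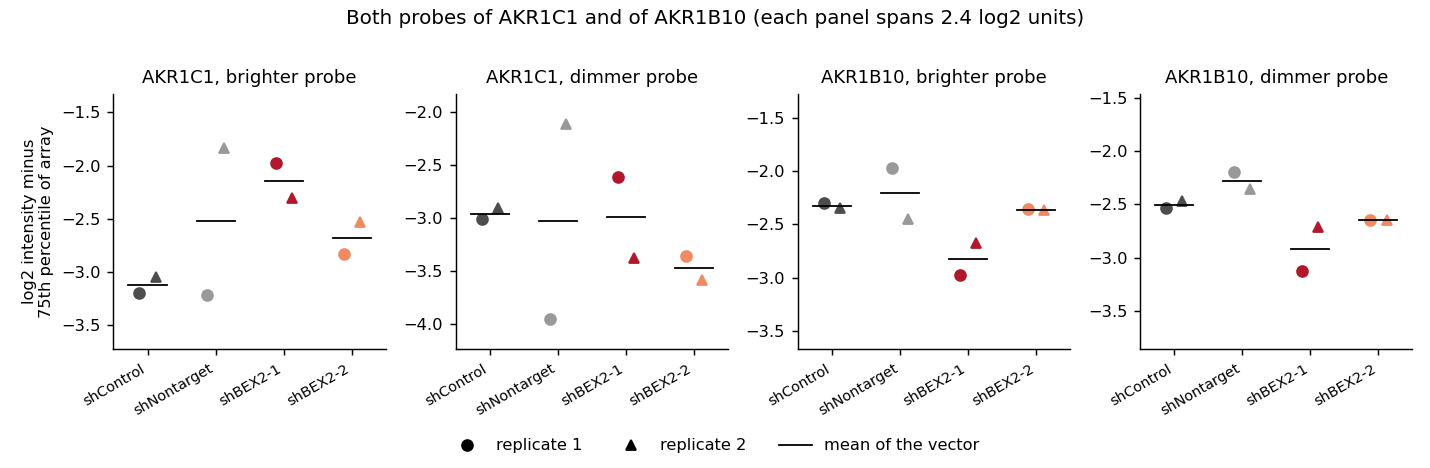
Log2 intensity minus the 75th percentile of the array for both probes of AKR1C1 and of AKR1B10 by vector, 1 point per array and a line at the mean of each vector. The brighter AKR1C1 probe is lowest with shControl and the dimmer one with shBEX2-2, while both AKR1B10 probes are lowest with shBEX2-1.

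As a list, chosen with earlier results of these data known, 2 of the 9 genes (22.2%) were called higher and 0 lower (limma). Of all genes, 6.68% were called higher and 6.27% lower, or 13.0% in either direction. At an unadjusted p under 0.05 there were 2 of the 9 (22.2%), both higher and 0 lower, beside 27.8% of all genes in either direction. All knockdown arrays were above all control arrays for 2 of the 9 (11.4% of all genes) and below for 0 of the 9 (10.7% of all genes). The median log2 difference of the list was 0.03, as it was over all genes tested. Between shNontarget and shControl, 0 of the 9 were called and 0 had an unadjusted p under 0.05 (limma), where 0 of all genes (0%) were called and 1565 had an unadjusted p under 0.05. Between shBEX2-1 and shBEX2-2, 0 of the 9 were called, where 0.00978% of all genes were. At an unadjusted p under 0.05 (limma) there was 1 of the 9, HMOX1, beside 1493 of all 20450 genes. Without 1 of the shNontarget arrays many more genes were called in every contrast. NQO1 and HMOX1 were higher with shBEX2-1 than with shBEX2-2 by 0.79 and 0.77 in both of these fits. These are the differences of the full fit, since no knockdown array was left out, and only the spread pooled over the vectors changed. Against the controls, 6 of the 9 were called in shBEX2-1 cells without either shNontarget array, where 52.9% (without replicate 1) and 52.6% (without replicate 2) of all genes were called. In shBEX2-2 cells 5 and 6 of the 9 were called, where 51.5% and 54.5% of all genes were, and between the control vectors 4 and 5 of the 9, where 45.2% and 46.3% of all genes were. Of the called genes, SRXN1 and TXNRD1 were higher in both sublines in both fits, and HMOX1 in shBEX2-1 cells in both. AKR1B10 was lower in shBEX2-1 cells in both (-0.44 and -0.68), and GCLC in shBEX2-2 cells in both (-0.25 and -0.36). GCLM changed sign between the fits in both sublines.

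**Figure D3:**
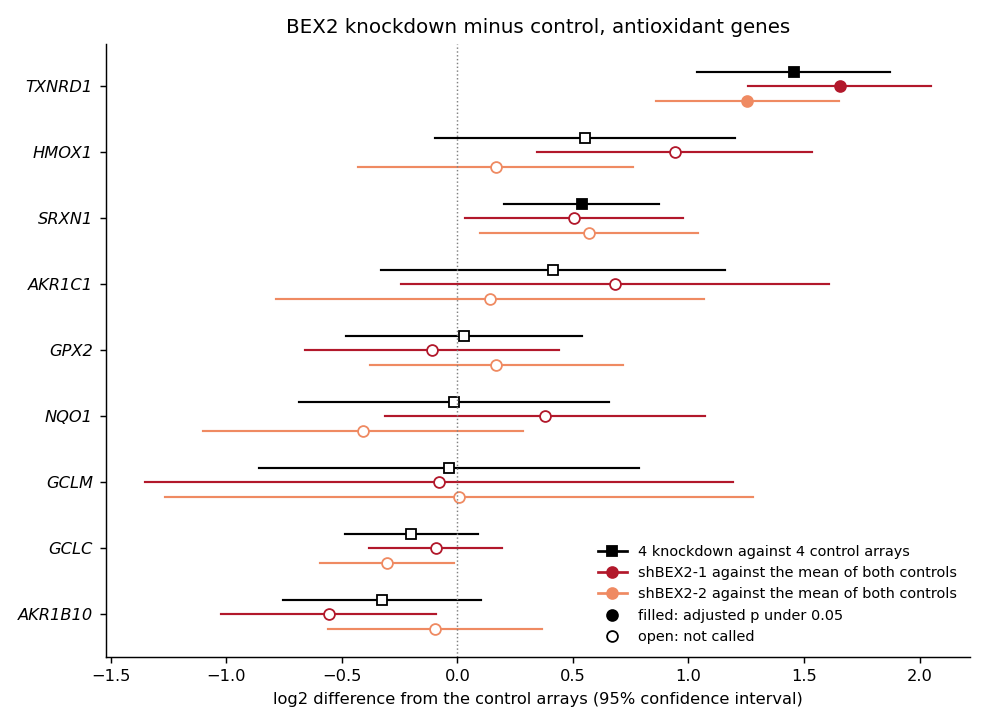
Log2 difference from the control arrays with its 95% confidence interval (horizontal axis) for the 9 genes, for the 4 against 4 comparison (squares) and each subline against both control vectors weighted equally (circles), filled where the adjusted p is under 0.05. TXNRD1 is filled in all 3 comparisons, SRXN1 in the 4 against 4 comparison, and the 2 sublines lie on opposite sides of 0 for NQO1.

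Of the regulators of the pathway, NFE2L2 itself could not be tested: its 1 probe was well above background on 1 of 8 arrays, with intensities between 3.91 and 15.0, so that the level of NRF2 messenger RNA is not given here. KEAP1 differed by 0.08 (limma, adjusted p = 0.735) and BACH1 by -0.52 (adjusted p = 0.0848), with 0.12 by a second BACH1 probe. BACH1 passed the test under 2 of the 20 alternatives, with the shControl arrays alone as control (-0.72, adjusted p = 0.0037) and without shNontarget replicate 1 (-0.67, adjusted p = 0.00772). In these 2 settings 3320 and 2270 of all 20450 genes were called as lower, against 1282 in the 4 against 4 comparison. Of 10 regulators tested, 0 were called higher and 2 lower, 20% of the list beside 13.0% of all genes. SQSTM1, whose protein p62 binds KEAP1 and is itself a target of NRF2, read 5.23 to 5.46 on control arrays and 4.08 to 4.32 on knockdown arrays, a fall of 1.09 on the log2 scale (adjusted p = 0.00148). BTRC, a subunit of the second ligase that degrades NRF2, fell by 0.53 (adjusted p = 0.0242).

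Around TXNRD1, the thioredoxin and peroxiredoxin list had 1 gene higher and 1 lower among 14 tested, 14.3% of the list beside 13.0% of all genes. PRDX1, a peroxiredoxin recharged by thioredoxin and repaired by SRXN1, read 4.15 and 3.93 with shControl, 4.67 and 3.42 with shNontarget, 5.27 and 5.15 with shBEX2-1 and 5.33 and 5.36 with shBEX2-2. PRDX1 was thus above every control array on all knockdown arrays and rose by 1.24 (limma, adjusted p = 0.0112), and its other probe rose by 1.01 (adjusted p = 0.0416 over all probes). Before scaling, the PRDX1 intensities of the groups overlapped, with 18968 on shNontarget replicate 1 and 17068 and 18229 on the shBEX2-1 arrays. SESN2, a stress-induced sestrin, fell by 1.89 (adjusted p = 0.00062). TXN, the thioredoxin that TXNRD1 reduces, read 4.77 and 4.47, 5.69 and 4.25, 4.53 and 4.33, and 5.68 and 5.55 in the order of the vectors above. Its groups overlapped and its log2 difference was 0.23 (adjusted p = 0.758), with the shBEX2-2 arrays and shNontarget replicate 1 high.

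Of 22 genes of glutathione metabolism tested, 4 were called higher and 3 lower, 31.8% of the list beside 13.0% of all genes. GPX3, the secreted glutathione peroxidase, rose by 1.34 (limma, adjusted p = 0.0097), and GSR, which reduces oxidized glutathione, by 0.57 (adjusted p = 0.0300). GSTM3 rose by 1.06 and GSTM4 by 1.01, both glutathione transferases of a family of close copies. The GSTM4 probe was dim and was well above background on only 5 arrays. It read -5.85 to -5.09 on control arrays and -4.75 to -4.06 on knockdown arrays. The size of the GSTM4 rise, 1 of the 4 calls as higher, thus rests on levels near background. CHAC1, which degrades glutathione, fell by 1.50 (adjusted p = 0.0325), SLC3A2, the chain shared by xCT and other amino acid carriers, by 1.41 (adjusted p = 0.00571), and OPLAH by 1.19. Taken by subline, CHAC1 differed from the mean of the control vectors by -2.17 in shBEX2-2 cells (adjusted p = 0.00711, where 4.81% of all genes were called as lower) and by -0.82 in shBEX2-1 cells (adjusted p = 0.132), and the sublines differed by 1.35 (adjusted p = 0.245). SLC7A11, the xCT chain that imports cystine, read between 1.57 and 2.11 on the control arrays, 1.53 and 1.22 with shBEX2-1 and 0.48 and 0.50 with shBEX2-2. Its knockdown arrays lay below all control arrays, and the difference of -0.82 did not pass the test (adjusted p = 0.0641). By subline it was called in shBEX2-2 cells (-1.27, adjusted p = 0.0120) and not in shBEX2-1 cells (-0.38, adjusted p = 0.286), and the sublines differed by 0.88 (adjusted p = 0.284). Over both sublines SLC7A11 passed without shNontarget replicate 1 (adjusted p = 0.0456) and without shBEX2-1 replicate 1 (0.0353). In this and the next paragraph, called genes beyond the largest rise and fall of a list were named after their values were seen.

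Among the other lists, CBR3 and PIR were higher and ABCC3 and UGT1A6 lower of 22 detoxification genes tested, 18.2% of the list beside 13.0% of all genes. CBR3, a carbonyl reductase, rose by 1.28 (limma, adjusted p = 0.0211) and ABCC3, an efflux pump for conjugates and bile salts, fell by 1.39 (adjusted p = 0.0134). AKR1C3, the neighbour of AKR1C1, read -2.15 and -2.13, -1.53 and -1.77, -0.43 and -0.67, and -1.61 and -1.44 in the order of the vectors above, highest with shBEX2-1, with a log2 difference of 0.86 (adjusted p = 0.0820, and 0.0410 without shNontarget replicate 1). Without that array 2457 of all genes were called as higher, against 1367 with all 8 arrays. By subline AKR1C3 was called in shBEX2-1 cells (1.34, adjusted p = 0.00874) and not in shBEX2-2 cells (0.37, adjusted p = 0.196), and the sublines differed by 0.97 (adjusted p = 0.142). HMOX2, the constitutive haem oxygenase, was the 1 of 12 haem and iron genes called (8.33%) and rose by 0.74 (adjusted p = 0.0389). SOD2, the mitochondrial superoxide dismutase, was the 1 of 12 peroxide and superoxide genes called (8.33%) and rose by 0.87 (adjusted p = 0.0259), while CAT, catalase, differed by -0.04 (adjusted p = 0.937). Of 8 genes that supply NADPH, 0 were called (limma, 3 or 37.5% at an unadjusted p under 0.05, as were 27.8% of all genes). In 11 genes of the amino acid and stress programme of ATF4, 0 were called higher and 8 lower, 72.7% of the list beside 6.27% of all genes called as lower, with a median of -0.87. This list, like the others, was chosen with earlier results of these data known, so that its share is a description. PHGDH, the first enzyme of serine synthesis, fell by 2.00 (adjusted p = 0.00225).

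Some of these calls were lost when 1 array was left out. CBR3 missed the threshold without shControl replicate 1 or 2, shBEX2-1 replicate 1 or shBEX2-2 replicate 1 or 2 (adjusted p between 0.0509 and 0.0720), and CHAC1 without either shControl array, shBEX2-1 replicate 2 or either shBEX2-2 array (between 0.0571 and 0.101). HMOX2 missed it without either shControl array or any of the 4 knockdown arrays (between 0.0723 and 0.116), and SOD2 without shControl replicate 2 or any of the 4 knockdown arrays (between 0.0562 and 0.0772). PRDX1, GPX3 and ABCC3 were called whichever array was left out, as were SQSTM1, SESN2 and PHGDH. Of the 20 alternatives, PRDX1, GPX3 and ABCC3 each lost the call under 1 of another kind, while SQSTM1, SESN2 and PHGDH kept it under all 20. By subline against the mean of the control vectors, PRDX1 was called in neither (limma, adjusted p = 0.101 for shBEX2-1 and 0.0667 for shBEX2-2), nor were CBR3, HMOX2 and SOD2. GPX3 and ABCC3 were called in shBEX2-2 cells (0.0309 and 0.0246) and not in shBEX2-1 cells (0.0862 and 0.122). There 4.86% of all genes were called as higher and 4.81% as lower with shBEX2-2.

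**Figure D4:**
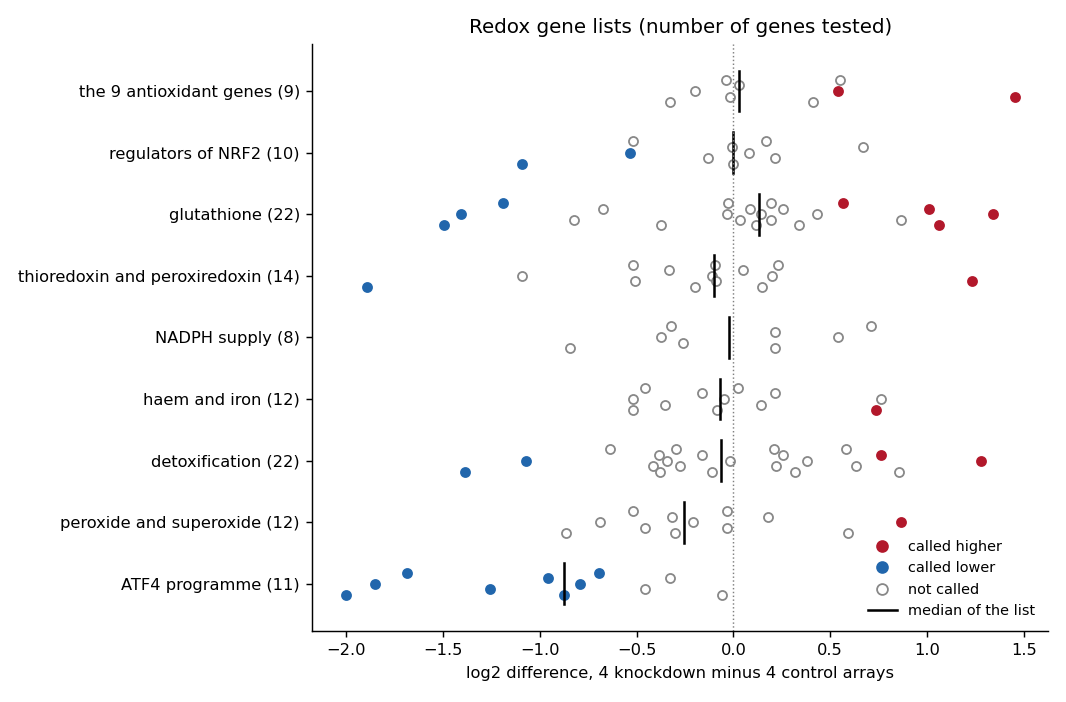
Log2 difference of the 4 knockdown from the 4 control arrays (horizontal axis) for each tested gene of the 9 antioxidant genes and 8 redox lists, filled where the adjusted p is under 0.05, with a line at the median of each list. Calls lie on both sides in the glutathione, thioredoxin and detoxification lists, and the 8 called genes of the ATF4 programme lie below 0.

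TXNRD1 and HMOX1 had the widest ranges of vector means among the 9 genes, 1.85 and 1.22 log2 units. The genes whose levels over the 8 arrays were most like TXNRD1 were SPRYD4 (Pearson r = 0.994), MME (0.993) and a lincRNA (0.992), and those most like HMOX1 were TPRA1 (0.973), RLTPR (0.973) and MMP1 (0.972). These are the highest of 20450 correlations over 8 arrays that share 4 vectors and are given as a description. When all 16 pairs of a knockdown and a control array were ranked, as in the rank product that the study's methods name, TXNRD1 was 340th of 20450 genes among rises, HMOX1 2248th, SRXN1 2843rd and AKR1C1, by its brighter probe, 3241st, and the next of the 9, NQO1, was 8585th. Among falls, the foremost of the 9 were AKR1B10 at 4887th, GCLM at 7269th and GCLC at 7577th.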

How the data were processed

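Total RNA of HuCCT1 cells was labelled with Cy3 and hybridized by the authors to Agilent arrays of design 028004, read with Agilent Feature Extraction 10.7.3.1 per the labels. The deposited intensity of a spot had its background subtracted and spatial trend removed by the scanner software, which puts a surrogate in place of low values (19.9% to 25.9% of spots), with no scaling from array to array. A table of the whole series gave the same intensity to within 0.497%.

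Control spots were left out and 3 to 15 non-uniform spots per array set missing. Log2 intensities minus each array's 75th percentile were averaged over the spots of a probe. Probes had to be well above background on 4 or more of the 8 arrays, and the brightest stood for its gene. No spot was saturated, and 59.8% to 64.6% of spots were well above background. The number of arrays limits the precision. Tests used limma 3.58.1 (lmFit, eBayes with trend; statmod 1.5.0, R 4.3.3) with Benjamini-Hochberg adjustment over 20450 genes and a threshold of 0.05, comparing 4 knockdown with 4 control arrays and, in a second model, the 4 vectors. The study's rank product takes chance values from permuted genes, so only its ranks are given. The scripts were tested on simulated data. Files were read and figures drawn with pandas 2.3.3 and numpy 2.4.6, and with matplotlib 3.10.9, in Python 3.11.15.

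The 9 genes and the gene lists were chosen with earlier results of these data known. Named were the 9 genes, BEX2, 10 genes fixed by name, the largest called rise and fall of each list, and the 3 genes most like the 2 most variable members. AKR1C2, GSTA1, UGT1A1 and TRIM16 had no probe under that name. Some named items are not reported here. Replicate numbers were taken to pair arrays, since the file names give each number a day of its own. Differences between replicates 2 and 1 correlated between vectors at r = 0.259, 0.126, 0.113, 0.207 and 0.228, and at -0.0628 between shNontarget and shBEX2-1.

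Alternatives were quantile normalization, normexp (offset 50), the series table, other filters, the mean of a gene's probes, no variance trend, blocks of replicate or vector, either control vector as the sole control, leaving out every array in turn, and the methods' t-test. Single probes and contrasts with shControl alone were added after the data were seen. Sequences are from the array annotation and RefSeq tables.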

Additional observations from a re-analysis of the deposited data

Results flagged for a closer look

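In 54 sets of 4 arrays (27 genes, control and knockdown apart), 3 held 1 distant array, with a gap to the nearest array that took up more of the set's range than Dixon's critical value for 4 values, a limit that chance passes in about 1 of 20 such sets. All 3 were control sets, and the far array was an shNontarget array in each. NQO1 read -1.28 on shNontarget replicate 1 and between -2.32 and -2.23 on the other control arrays (ratio 0.915). AKR1C1 read -1.84 on shNontarget replicate 2 and between -3.21 and -3.05 on the others (ratio 0.882). SOD2 read 0.14 on shNontarget replicate 2 and between 0.96 and 1.07 on the others (ratio 0.886). The cause was not tested.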

How the results depend on the processing

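Of 541 single-gene values under alternatives, 463 kept direction and side of the threshold, 49 lost the call, 11 gained it and 18 changed sign. Those with another sign were never called: NQO1 with quantile normalization (0.042), normexp (0.029), shControl alone as control (0.21), without shNontarget replicate 1 (0.23) and without shBEX2-2 replicate 1 or 2 (0.098, 0.13), with a range from -0.16 to 0.23 when 1 array was left out; GCLM with shNontarget alone (0.076), without shControl replicate 2 (0.027) and without shNontarget replicate 2 (0.27), with a range from -0.42 to 0.27; GPX2 with shNontarget alone (-0.20), without shControl replicate 1 (-0.11) and without shBEX2-2 replicate 1 or 2 (-0.0033, -0.032), with a range from -0.11 to 0.14; CAT with shNontarget alone (0.27), without shControl replicate 1 or 2 (0.083, 0.053) and without shBEX2-2 replicate 2 (0.054), with a range from -0.21 to 0.083; and AKR1C1 by its dimmer probe (-0.24).

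The 2649 calls over all genes became 6842 with shControl alone as control, 340 with shNontarget alone and between 1246 (without shBEX2-2 replicate 1) and 4727 (without shNontarget replicate 1) with 1 array left out. Calls as higher were 51.6% of all calls, and 63.6% with normexp, which moved the median of all genes from 0.03 to 0.10. The methods' t-test called 2169 genes after adjustment and 5418 before. The 2 members called became 1 without the filter on dim probes, without the variance trend and by the methods' t-test. Their number became 4 with shControl alone, where 6842 of all 20450 genes were called, and 0 with shNontarget alone, where 340 were. With 1 array left out it was between 1 and 3. It was 3 without either shNontarget array. Without replicate 1 and replicate 2 of shNontarget, 2457 and 2150 of all genes were called as higher, and 2270 and 2158 as lower. The median of the 9 members was 0.03, 0.26 with shControl alone, and between -0.025 (without shControl replicate 1) and 0.27 (without shNontarget replicate 2) with 1 array left out.

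With 1 array left out, the members called ranged from 0 to 6 for shBEX2-1 and for shBEX2-2 against the mean of the controls, from 0 to 2 between the sublines and from 0 to 5 between the control vectors. The counts of 4 to 6 came without an shNontarget array, where between 45.2% and 54.5% of all genes were called. A lone array is assumed there to vary like the other groups. With the replicate block, 2 members were called, as without it, and it changed no call of a named gene.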
